A study of Macaca fascicularis and Mus musculus with 42 samples.

Results

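In cynomolgus monkey (Macaca fascicularis), cells that had switched on a PRDM1 reporter without the TFAP2C reporter were compared with undifferentiated embryonic stem cells (ESC) of the reporter lines. The members were taken by their labels and make up 7 of the 42 libraries of the series. They are 3 libraries sorted as BT single positive, 1 from day 2 and 2 from day 4 of induction, and 4 libraries of reporter ESC. BT is read here as the Blimp1-tdTomato transgene, which reports PRDM1, and AG as the TFAP2C-EGFP transgene, from the names in the labels. All 7 libraries come from lines with both transgenes, so the ESC carry the same reporters as the sorted cells. The BT libraries and 3 ESC libraries are of line 656BTAG42, and ESC library 2 is of line 656BTAG63. The BT cells came from aggregates in aRB27 medium, Advanced RPMI1640 with B27, supplemented with 200 ng/ml BMP4, 100 ng/ml SCF, 50 ng/ml EGF, 1000 U/ml LIF and 10 µM Y27632, a ROCK inhibitor. The ESC were kept in AITS medium, per the labels with 20 ng/ml bFGF and 2.5 nM IWR1, a WNT pathway inhibitor, so medium, aggregation and sorting differ between the groups along with the gate and cannot be told apart. The labels give neither the bounds of the gate nor the number of cells sorted, and they do not state that replicate libraries are separate cultures. The p-values therefore measure the spread between these libraries alone. With bulk RNA, a change in the share of one kind of cell and a change in the RNA of each cell cannot be told apart.

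Induction of primordial germ cell-like cells with BMP4 gives mixed aggregates. PRDM1 (also called BLIMP1), a transcriptional repressor, and SOX17, an HMG-box transcription factor, are used by primate germ cells and by endoderm alike, whereas TFAP2C belongs to the early germ cell programme. GATA6, GATA4 and FOXA2 are transcription factors of primitive endoderm (the hypoblast) and of definitive endoderm, the germ layer of gut, liver and lung. Visceral endoderm, the extraembryonic derivative that nourishes the early embryo, makes many of the serum proteins that the liver makes later, TTR (the thyroxine carrier transthyretin) among them. Anterior endoderm and the organizer of the gastrula secrete antagonists of WNT, NODAL and BMP signals, such as CER1 and DKK1.

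A further column labelled reporter ESC, ESC library 5, was left out because its PRDM1 level contradicts the label. It held 253 RPM of PRDM1, 1211 RPM of SOX17 and 588 RPM of TFAP2C, values unlike those of the other 4 ESC libraries. With that library kept as labelled, 464 genes were higher and 338 lower in BT cells, against the 894 and 626 given below without it. Of the 107 calls among the genes chosen by rule for naming, 38 then missed the threshold, all with the direction kept. SOX17 was 1 of them (limma, log2 difference 6.51, adjusted p = 0.054). Others were TTR, FABP1, DAB2, GATA3, HAND1, CDX2, CDX1, ISL1, KIT, ALPL, PDPN, MSX2, ID1, BAMBI and AXIN2 above ESC, and FOXD3, SFRP1, VTCN1, ACTA2, PCNA, GPC4, CD24 and S100A6 below it. Of the 33 reporter-line columns of the table, 19 would bear another name and 9 another group if the names were read in alphabetical order. In that reading the 3 BT columns keep their names, and the 4 ESC columns stay in the ESC group but take another name, 1 of them that of ESC library 5. The column of ESC library 5 would then be a BTAG library of day 2 in another medium, GK15, and a column labelled BTAG of day 6 in GK15 would be a reporter ESC. Line and title code of an ESC column are therefore less sure than its group. The BT libraries held 2.93 M (day 2), 2.01 M and 2.76 M reads (day 4), against 6.80 M, 2.32 M, 2.28 M and 1.86 M reads in the ESC libraries, as recovered from the values, so 1 read was worth 0.342 to 0.498 RPM in BT and 0.147 to 0.539 RPM in ESC. RPM are the reads of a gene per M reads of its library, so levels under a few RPM rest on a few reads. Across the 9485 genes tested, day 4 BT library 1 correlated with the ESC libraries at Pearson r of 0.77 to 0.81 on the log2 scale, against 0.70 to 0.74 for the other BT libraries, a description across genes, which are not replicates.

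The sort used a PRDM1 reporter and the choice of ESC libraries used the PRDM1 level, so PRDM1 is given as a description only. PRDM1 was 85.1 RPM on day 2 and 104 and 114 RPM on day 4 in BT libraries, against 0.59, 2.59, 0 and 0 RPM in ESC libraries. TFAP2C was 0.34 RPM on day 2 and 3.48 and 2.53 RPM on day 4 in BT, against 2.94, 14.2, 4.4 and 6.46 RPM in ESC, so the groups overlapped. NANOS3, an RNA-binding protein of early germ cells, was 1.71 RPM on day 2 and 5.47 and 0.72 RPM on day 4 in BT and listed at 0 in all 4 ESC libraries. TFAP2C and NANOS3 did not reach the filter of 10 RPM in at least 2 libraries and were not tested against ESC. The 3 markers that go with the endoderm-like name behaved unequally. SOX17 (gene ID 101925698) was 475 RPM on day 2 and 925 and 716 RPM on day 4 in BT, against 3.38, 3.45, 0 and 0 RPM in ESC, the largest increase of all genes tested. SOX17 was higher by 8.34 ± 0.55 log2 units (SE, adjusted p = 2.7e-06). GATA6 (gene ID 102146495) was 220.4 RPM on day 2 and 480.3 and 325 RPM on day 4 in BT, against 7.35, 7.34, 0 and 0.54 RPM in ESC. GATA6 rose by 6.66 ± 0.68 log2 units (SE, adjusted p = 3.9e-05). Both were high in each of the 3 BT libraries and did not overlap with ESC. TTR (gene ID 101864775) was 778 RPM on day 2 and 0 and 36.9 RPM on day 4 in BT, against 0.15, 0, 0 and 0 RPM in ESC, so it was high on day 2, lower in 1 day 4 library and listed at 0 in the other, where the groups overlap. Its difference (log2 difference 4.90 ± 1.59 SE, adjusted p = 0.046) lost its call when any 1 of the 4 ESC libraries was left out, with adjusted p-values of 0.075 to 0.094, and TTR did not pass the filter without the day 2 library or without day 4 library 2. The endoderm markers SOX17 and GATA6 thus held in each BT library, and TTR only in the day 2 library and day 4 library 2, so the cells are called BT cells in what follows.

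**Figure D1:**
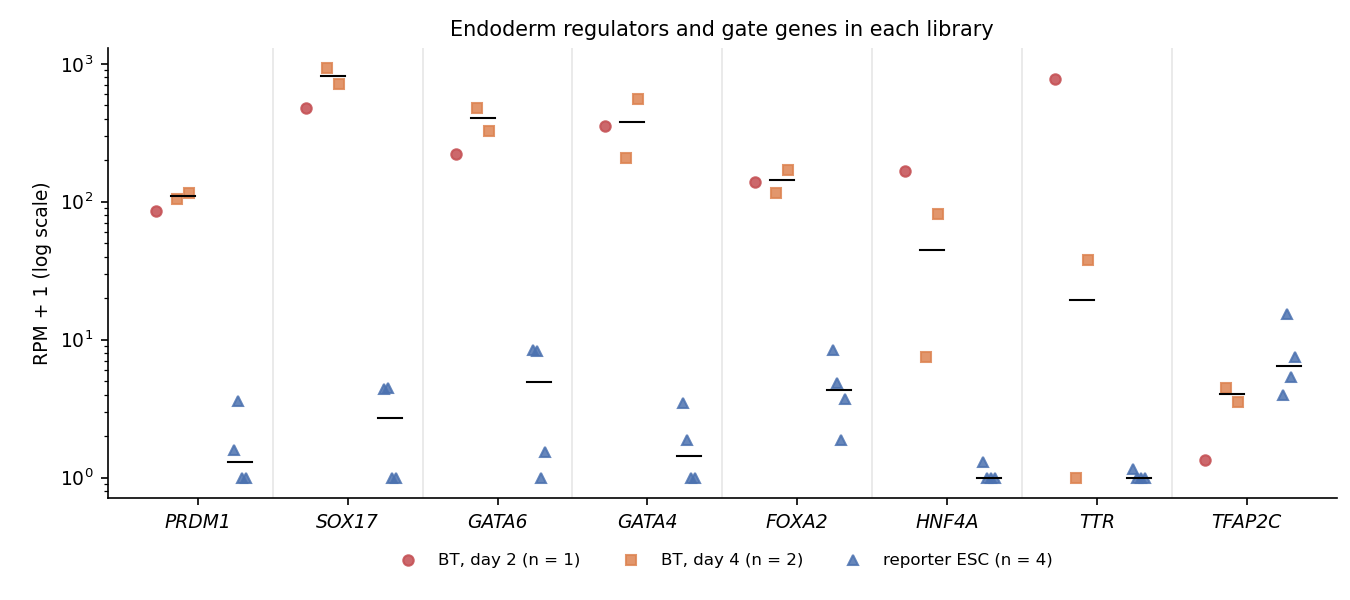
RPM + 1 on a log scale in each library for the gate genes PRDM1 and TFAP2C and for endoderm genes, with BT libraries of day 2 (circles) and day 4 (squares) left of reporter ESC libraries (triangles); black bars are medians. SOX17, GATA6, GATA4 and FOXA2 lie above all ESC libraries in each BT library, while TTR is at 0 in day 4 library 1.

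Of 9485 genes tested, 894 (9.43%) were higher and 626 (6.6%) lower in BT cells, 1520 (16%) in all, at a limma adjusted p under 0.05 and a log2 difference of at least 1, which is what "higher", "lower", "rose", "fell" and "called" mean below. Every BT library lay above every ESC library for 1666 genes (17.6%), and below for 1317 (13.9%). The counts of list members below are to be read beside these shares of all tested genes. Among the tested genes 510 reached 10 RPM in BT libraries alone and 486 in ESC libraries alone, and such genes could hardly have passed without differing. The differences are on the log2(RPM + 1) scale, which understates those of low genes, and their median over all genes was 0.04. For a gene at 0 in every library of a group the fitted difference depends on the pseudocount of 1 RPM and is no bound. With the days apart, 704 genes (7.42%) were higher and 503 (5.3%) lower on day 4 than in ESC, and 560 (5.9%) were higher and 389 (4.1%) lower on day 2. These 2 comparisons share the ESC libraries, and the lone day 2 library takes its spread from the day 4 and ESC libraries. Between day 4 and day 2 of the BT cells no gene was called by limma or edgeR, and 34 were by DESeq2. With limma 436 genes were at an unadjusted p under 0.05, with a smallest adjusted p of 0.065. The count of higher genes was 573 without day 4 BT library 2, and the day 4 comparison gave 523 calls without that library, against 1207 with it. All BT libraries have the title code MS162, which 2 of the 4 ESC libraries share, and with MS162 libraries alone (3 BT, 2 ESC) 593 genes were higher and 289 lower. In the alphabetical reading of the names ESC libraries 1, 3 and 4 would all be MS162, and without ESC library 2 there were 851 higher and 507 lower genes. Of the 107 calls among the genes chosen by rule for naming, 25 missed the threshold with MS162 libraries alone, all with the direction kept. Among them were TTR, FABP1, VTN, MTTP, APOE, LAMA5, LAMB1, COL4A5, CDX1, HAND2, TWIST1, KDR, BAMBI, GDF3, FOXH1, TET2 and SCD above ESC, and POU5F1, POU3F1, VTCN1, COL1A1, PCNA, CD9 and CD24 below it.

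**Figure D2:**
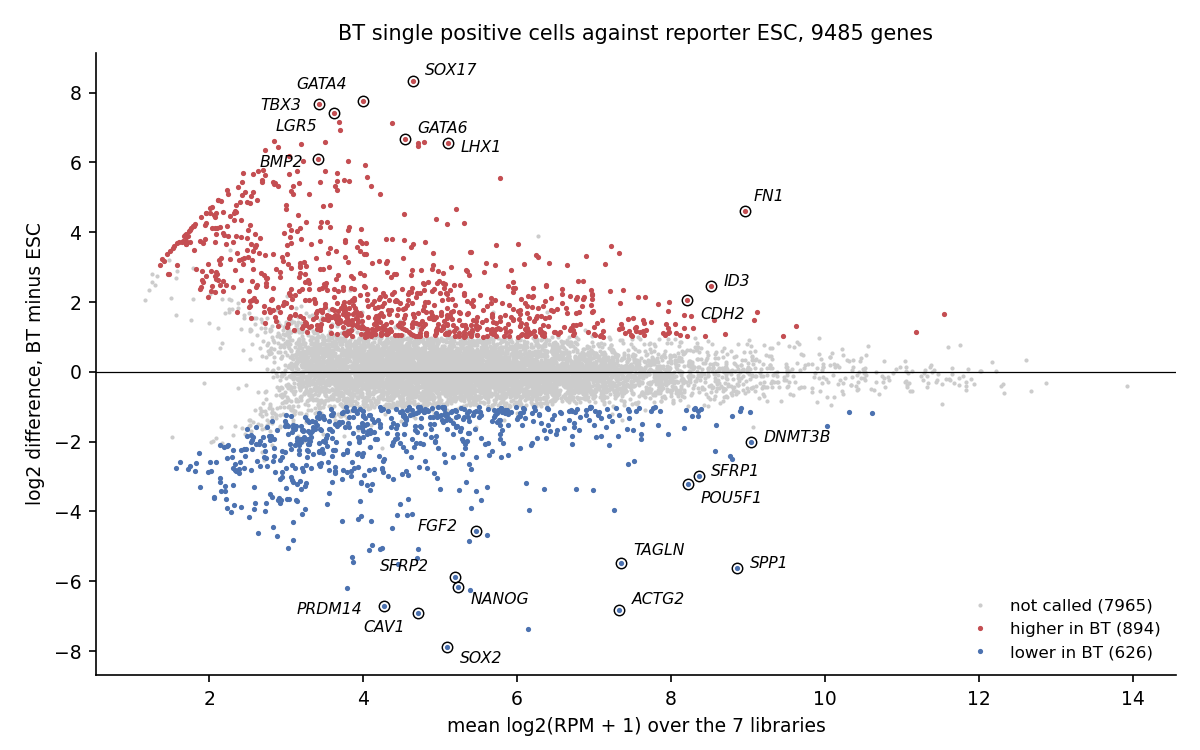
Log2 difference of BT cells minus ESC against the mean log2(RPM + 1) over the 7 libraries, 1 point a gene, with called genes in red (894 higher in BT) and blue (626 lower in BT). Endoderm genes such as SOX17, GATA4 and GATA6 stand at the upper edge, and SOX2, PRDM14, NANOG and the contractile gene ACTG2 at the lower edge.

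Transcription factors of endoderm were higher in part. Of the 15 listed, 8 passed the filter, 6 of them through BT libraries alone and 1 through ESC alone, and 6 were higher and 1 lower, where 9.43% and 6.6% of all tested genes were. GATA4, the partner of GATA6 in endoderm and heart, was 351 RPM on day 2 and 207 and 553 RPM on day 4 in BT, against 2.5, 0.86, 0 and 0 RPM in ESC. GATA4 was higher by 7.75 ± 0.48 log2 units (SE, adjusted p = 1.9e-06). FOXA2, a pioneer factor that opens chromatin of endoderm genes, was 139 RPM on day 2 and 114 and 169.7 RPM on day 4 in BT, against 7.35, 3.88, 0.88 and 2.69 RPM in ESC. FOXA2 rose by 5.09 ± 0.43 log2 units (SE, adjusted p = 1.2e-05). Both were above every ESC library in all BT libraries, on day 2 and on day 4. HNF4A, a nuclear receptor that drives liver and visceral endoderm genes, was less even, with 166 RPM on day 2 and 6.47 and 80.7 RPM on day 4 in BT, against 0.29, 0, 0 and 0 RPM in ESC. HNF4A rose by 5.45 ± 0.87 log2 units (SE, adjusted p = 0.00098). It passed the filter only with both the day 2 library and day 4 library 2. FOXA1 was above 10 RPM in the day 2 library alone, with 36.2 RPM on day 2 and 2.49 and 5.79 RPM on day 4 in BT and 0 in all ESC libraries, and was not tested. FOXA3, another forkhead factor of liver and gut, was not called (48.9 RPM on day 2 and 11.9 and 22.8 RPM on day 4 in BT, against 13.7, 5.18, 11.9 and 15.1 RPM in ESC). HNF4G, a relative of HNF4A, was the member that fell, with 1.71 RPM on day 2 and 1 and 0 RPM on day 4 in BT, against 5.59, 13.8, 14.9 and 4.85 RPM in ESC. HNF4G fell by 2.48 ± 0.62 log2 units (SE, adjusted p = 0.015). It did not pass the filter without ESC library 2 or 3. HHEX, PROX1 and ONECUT1, factors of liver and foregut, stayed at or under 10.1 RPM in each of the 7 libraries.

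The hypoblast-associated list shares members such as SOX17, GATA4 and GATA6 with the list above. Of its 12 members 9 were tested, 7 of them passing through BT libraries alone. Of the 9, 8 were higher and 0 lower, where 9.43% and 6.6% of all tested genes were. On day 4, 7 were higher and 1 lower (7.42% and 5.3% of all tested genes). On day 2, 8 were higher and 0 lower (5.9% and 4.1%). BMP2, a secreted ligand that visceral endoderm makes in mouse, was 208 RPM on day 2 and 66.2 and 121 RPM on day 4 in BT, against 1.91, 2.16, 0 and 0 RPM in ESC. BMP2 rose by 6.10 ± 0.54 log2 units (SE, adjusted p = 1.7e-05). RSPO3, which amplifies WNT signals, was 71.8 RPM on day 2 and 71.2 and 13.4 RPM on day 4 in BT, against 0.29, 0, 0 and 0 RPM in ESC. RSPO3 was higher by 5.31 ± 0.64 log2 units (SE, adjusted p = 0.00013). Both were in every BT library at levels that no ESC library reached. BMP6 was higher as well (193 RPM on day 2 and 18.9 and 125 RPM on day 4 in BT, against 17.5, 16, 11.4 and 17.2 RPM in ESC), with its lowest BT value in day 4 library 1, and its call (log2 difference 2.27 ± 0.59 SE) was lost without the day 2 library (1.62, adjusted p = 0.086) or day 4 library 2 (1.93, adjusted p = 0.09). PDGFRA, a receptor that marks primitive endoderm in mouse, stayed low at 18.8 RPM on day 2 and 4.98 and 9.04 RPM on day 4 in BT and 0.15, 0.43, 0 and 1.08 RPM in ESC and was not tested.

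Genes of the organizer and of anterior endoderm were also high. All 14 listed members in the table passed the filter, 3 of them through BT libraries alone. In the joint comparison 9 were higher and 0 lower, where 9.43% and 6.6% of all tested genes were. On day 4, 10 were higher (7.42% of all tested genes) and on day 2, 5 were (5.9% of all tested genes). LHX1, a LIM homeodomain factor of the organizer, was 302 RPM on day 2 and 489 and 658 RPM on day 4 in BT, against 11.3, 9.49, 0.44 and 2.15 RPM in ESC. LHX1 rose by 6.55 ± 0.63 log2 units (SE, adjusted p = 2.7e-05). CXCR4, a chemokine receptor used to sort definitive endoderm, was 176 RPM on day 2 and 325 and 686 RPM on day 4 in BT, against 5.74, 7.77, 0 and 2.69 RPM in ESC. CXCR4 was higher by 6.47 ± 0.65 log2 units (SE, adjusted p = 3.8e-05). EOMES, a T-box factor of primitive streak and endoderm, was 257 RPM on day 2 and 739 and 636 RPM on day 4 in BT, against 20.1, 18.6, 0.88 and 15.1 RPM in ESC. EOMES rose by 5.55 ± 0.71 log2 units (SE, adjusted p = 0.00021). GSC (goosecoid), the classical organizer gene, was 32.8 RPM on day 2 and 70.2 and 106 RPM on day 4 in BT, against 4.85, 0, 0 and 1.08 RPM in ESC. GSC was higher by 5.09 ± 0.64 log2 units (SE, adjusted p = 0.00018). In these 4 genes the day 2 library was the lowest BT library and still above every ESC library. DKK1, a secreted WNT antagonist, was 14.7 RPM on day 2 and 62.2 and 389.6 RPM on day 4 in BT, against 6.77, 6.04, 0 and 0 RPM in ESC. DKK1 rose by 4.74 ± 1.01 log2 units (SE, adjusted p = 0.0059). CER1, which binds NODAL, BMP and WNT ligands, was 20.8 RPM on day 2 and 935 and 2363 RPM on day 4 in BT, against 131, 189.9, 0 and 12.9 RPM in ESC. CER1 thus overlapped with ESC on day 2 and was far above it on day 4, and it was called on day 4 (log2 difference 5.93, adjusted p = 0.026) but not in the joint comparison (adjusted p = 0.13). The day 4 call of CER1 was lost without day 4 library 1 (6.60, adjusted p = 0.19) or without day 4 library 2 (5.27, adjusted p = 0.32). MIXL1, a homeobox gene of primitive streak and endoderm, was 25.3 RPM on day 2 and 320.0 and 111 RPM on day 4 in BT, against 31.8, 17.3, 3.96 and 9.7 RPM in ESC, and its call (adjusted p = 0.017) was lost without day 4 library 1 (log2 difference 2.03, adjusted p = 0.064) or without day 4 library 2 (2.78, adjusted p = 0.066). OTX2, an anterior homeobox gene, was 87.8 RPM on day 2 and 139 and 287 RPM on day 4 in BT, against 32.2, 42.7, 18 and 34.5 RPM in ESC. OTX2 was higher by 2.28 ± 0.38 log2 units (SE, adjusted p = 0.0013). FLRT3, an adhesion protein of anterior visceral endoderm in mouse, was even across the days, with 196 RPM on day 2 and 123 and 175 RPM on day 4 in BT, against 12.1, 21.1, 11.9 and 12.9 RPM in ESC. FLRT3 rose by 3.43 ± 0.27 log2 units (SE, adjusted p = 7.5e-06).

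The tested serum proteins of visceral endoderm and liver were highest in the day 2 library. Of 20 listed members 8 were tested, 6 of which passed through BT libraries alone, and 6 were higher and 0 lower. Of all tested genes 9.43% were higher and 6.6% lower. On day 2 the count of higher members was 7 of 8 (5.9% of all tested genes) and on day 4 it was 4 of 8 (7.42%). The summed level of the 20 members was 3356, 116 and 425 RPM in BT, against 65.3, 49.6, 59.8 and 61.4 RPM in ESC. APOA1, the main protein of high-density lipoprotein, was 436 RPM on day 2 and 9.46 and 180.2 RPM on day 4 in BT, against 0.59, 1.29, 0.88 and 2.15 RPM in ESC. APOA1 was higher by 5.45 ± 0.95 log2 units (SE, adjusted p = 0.0017). APOB, the scaffold of secreted lipoproteins, was 344 RPM on day 2 and 0.5 and 13 RPM on day 4 in BT, against 1.18, 0.86, 0 and 1.08 RPM in ESC, so day 4 library 1 lay within the ESC range and the joint comparison made no call (adjusted p = 0.084). MTTP, which loads lipid onto APOB, was 300.0 RPM on day 2 and 2.99 and 17 RPM on day 4 in BT, against 0.88, 0, 0.88 and 0 RPM in ESC. MTTP rose by 4.34 ± 1.12 log2 units (SE, adjusted p = 0.016). VTN (vitronectin) was 151 RPM on day 2 and 4.48 and 35.1 RPM on day 4 in BT, against 0.44, 0, 0.88 and 0 RPM in ESC. VTN was higher by 4.60 ± 0.91 log2 units (SE, adjusted p = 0.0037). FABP1, the liver fatty acid binding protein, was 675 RPM on day 2 and 1 and 11.9 RPM on day 4 in BT and listed at 0 in all ESC libraries, so the mean over the BT libraries was at least 1012-fold higher, against 3 reads over the 4 ESC libraries together, and the day 2 library carries that mean. The call of FABP1 (log2 difference 4.70 ± 1.45 SE, adjusted p = 0.037) was lost when any 1 of the 4 ESC libraries was left out, with adjusted p-values of 0.061 to 0.078. Like TTR, the genes FABP1, APOA1, VTN and MTTP passed the filter only with both the day 2 library and day 4 library 2, so their calls rest on these 2 libraries. FGB, the fibrinogen beta chain, reached the filter in 1 library only (233 RPM on day 2 and 0.5 and 7.24 RPM on day 4 in BT, against 0, 0, 0.88 and 0 RPM in ESC), and FGG (33.8 RPM on day 2 and 0 and 3.62 RPM on day 4 in BT) and FGA (14.7 RPM on day 2 and 0.5 and 3.98 RPM on day 4 in BT) were at 0 in all ESC libraries. AFP, the fetal serum protein, was 57.7 RPM on day 2 and 0 and 3.26 RPM on day 4 in BT, against 4.41, 9.49, 1.76 and 7.54 RPM in ESC, above ESC in the day 2 library only. ALB was 2.39 RPM on day 2 and 0 and 0 RPM on day 4 in BT, and TF and AHSG were listed at 0 in all 7 libraries.

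Of the endocytic receptor list, with 7 members, 3 were tested, 1 of them passing through BT libraries alone. Of the 3, 1 was higher, where 9.43% of all tested genes were. LRP2 (megalin), the receptor with which visceral endoderm takes up proteins, was 101.5 RPM on day 2 and 0 and 2.53 RPM on day 4 in BT and 0 in all ESC libraries, and its partner CUBN was 14.7 RPM on day 2 and 0 and 0.36 RPM on day 4 in BT, against 0.44, 0, 0 and 0.54 RPM in ESC. Both were thus seen in the day 2 library and at a few reads or none on day 4, and neither was tested. DAB2, an adaptor of this uptake, was the member that rose, with 100.8 RPM on day 2 and 95.6 and 46 RPM on day 4 in BT, against 9.71, 17.3, 11.4 and 19.9 RPM in ESC. DAB2 rose by 2.36 ± 0.34 log2 units (SE, adjusted p = 0.00047). The limma test of day 4 against day 2 called none of these genes: TTR had a log2 difference of -6.98, FABP1 of -7.05 (adjusted p = 0.081), APOB of -6.23 and CER1 of 6.09. With 1 library on day 2 and values of day 4 libraries that differ from each other by a wide margin, as for TTR and APOA1, the order of the days is a description of these 3 libraries.

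**Figure D3:**
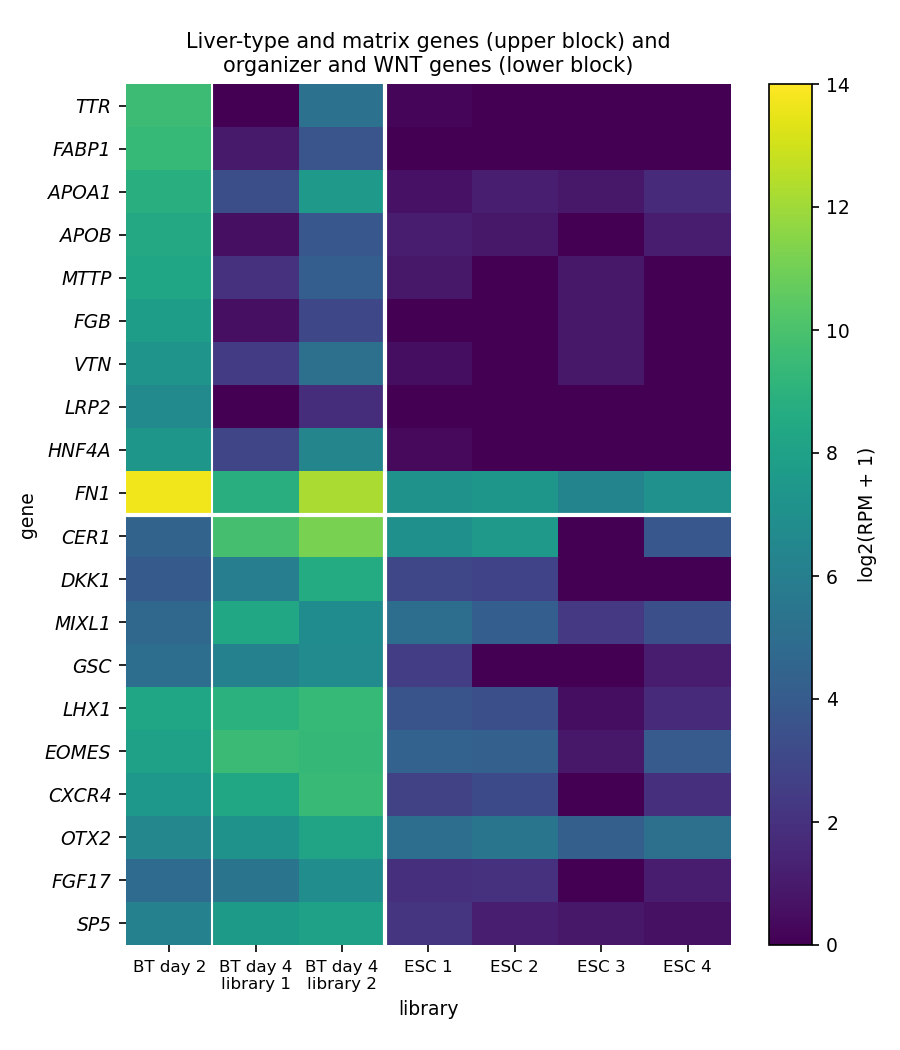
Colour gives log2(RPM + 1) for 10 liver-type and matrix genes (upper block) and 10 organizer and WNT genes (lower block) in the 3 BT libraries, left of the white line, and the 4 ESC libraries. The day 2 library is brightest for TTR, FABP1, APOB and FN1, and the day 4 libraries for CER1, EOMES and MIXL1, with day 4 library 1 dark for the liver-type genes.

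Basement membrane genes were higher in part. All 12 basement membrane genes listed were tested, 2 of them, LAMA1 included, passing through BT libraries alone. Of the 12, 6 were higher and 0 lower, where 9.43% and 6.6% of all tested genes were. On day 4, 3 were higher (7.42% of all tested genes) and on day 2, 6 were (5.9%). LAMA1, the laminin chain of the earliest basement membranes, was 159.6 RPM on day 2 and 13.4 and 90.8 RPM on day 4 in BT, against 3.82, 8.63, 1.76 and 2.15 RPM in ESC. LAMA1 was higher by 3.74 ± 0.71 log2 units (SE, adjusted p = 0.0028). COL4A1, a chain of type IV collagen, was 319 RPM on day 2 and 148 and 358 RPM on day 4 in BT, against 60.8, 65.2, 53.2 and 49.6 RPM in ESC. COL4A1 rose by 2.16 ± 0.28 log2 units (SE, adjusted p = 0.00025). COL4A6 was 45.1 RPM on day 2 and 32.4 and 40.5 RPM on day 4 in BT, against 3.68, 4.75, 14.1 and 11.8 RPM in ESC. COL4A6 was higher by 2.23 ± 0.42 log2 units (SE, adjusted p = 0.0027). The calls of LAMB1, LAMA5 and COL4A5 were weaker, with log2 differences of 1.17 to 1.19, and each was lost without the day 2 library (0.77, 1.07 and 1.13) and without day 4 library 2 (1.07, 0.91 and 1.13). LAMB1 lost it as well without ESC library 1, 3 or 4 (1.05 to 1.18), and COL4A5 without ESC library 1 (1.02). SPARC (548 RPM on day 2 and 526 and 389 RPM on day 4 in BT, against 339, 456, 415 and 689.6 RPM in ESC), a matrix protein that is abundant in mouse parietal endoderm, and NID1 were not called. FN1 (fibronectin) had a wide span, with 13235 RPM on day 2 and 460.4 and 4856 RPM on day 4 in BT, against 143, 167, 80 and 134 RPM in ESC. FN1 rose by 4.60 ± 0.81 log2 units (SE, adjusted p = 0.0018). Its day 2 value was thus many times that of day 4 library 1, which was itself above every ESC library.

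In the list of epithelial and mesenchymal state, 11 of 15 members were tested, 1 of them passing through ESC alone. FN1 and CDH2 were higher and 0 lower, where 9.43% and 6.6% of all tested genes were. CDH2 (N-cadherin) was 736 RPM on day 2 and 532 and 775 RPM on day 4 in BT, against 146, 126, 129 and 276 RPM in ESC. CDH2 was higher by 2.06 ± 0.27 log2 units (SE, adjusted p = 0.00025). Epithelial keratins followed the day 2 library: KRT19 was 294 RPM on day 2 and 14.4 and 65.5 RPM on day 4 in BT, against 18.5, 35.8, 13.6 and 18.9 RPM in ESC, and KRT8 was 325 RPM on day 2 and 88.6 and 230.4 RPM on day 4 in BT, against 82.5, 99.7, 67.2 and 131 RPM in ESC, called on day 2 but not on day 4 or jointly. EPCAM was 184 RPM on day 2 and 12.9 and 34.4 RPM on day 4 in BT, against 36.8, 69.9, 30.8 and 18.3 RPM in ESC, with day 2 above and day 4 library 1 below all ESC libraries. VIM (vimentin) was 3873 RPM on day 2 and 4382 and 6012 RPM on day 4 in BT, against 2093, 3623, 2706 and 2761 RPM in ESC, above ESC in each BT library with a log2 difference of 0.77, under the threshold of 1.

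The stem cell programme was lower in part. Of 13 pluripotency genes 10 were tested, 3 of them passing through ESC alone. Of the 10, 0 were higher and 6 lower, where 9.43% and 6.6% of all tested genes were. SOX2, an HMG-box factor of pluripotent and neural cells, was 0 RPM on day 2 and 1 and 0.72 RPM on day 4 in BT, against 311, 398, 375 and 337 RPM in ESC, the largest decrease of all genes tested. SOX2 fell by 7.88 ± 0.27 log2 units (SE, adjusted p = 1.8e-08). NANOG was 0.68 RPM on day 2 and 7.47 and 1.45 RPM on day 4 in BT, against 246, 217, 179.8 and 317 RPM in ESC. NANOG fell by 6.17 ± 0.45 log2 units (SE, adjusted p = 4.7e-06). POU5F1 (OCT4) was 24.3 RPM on day 2 and 319.5 and 70.2 RPM on day 4 in BT, against 725, 1091, 672 and 676 RPM in ESC. POU5F1 fell by 3.22 ± 0.61 log2 units (SE, adjusted p = 0.0028). With MS162 libraries alone its difference was -3.02 (adjusted p = 0.061). POU5F1 was thus lower in every BT library but was least so in day 4 library 1, the BT library that correlated most with ESC. DPPA4 (log2 difference -3.39 ± 0.43 SE), L1TD1 (log2 difference -2.56 ± 0.38 SE) and FOXD3 (log2 difference -4.15 ± 0.52 SE) fell too. LIN28A, an RNA-binding protein that blocks let-7 maturation, was 1692 RPM on day 2 and 1872 and 1197 RPM on day 4 in BT, against 1014, 859, 996 and 1073 RPM in ESC, and SALL4 was 118 RPM on day 2 and 156 and 164 RPM on day 4 in BT, against 96.5, 61.7, 80.4 and 86.2 RPM in ESC. Both were above every ESC library and under the fold threshold, and LIN28B and TDGF1 overlapped with ESC.

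Of 16 genes of primed epiblast and neural tissue, 14 were tested, 4 of them passing through ESC alone. Of the 14, 8 were lower and 0 higher, where 6.6% and 9.43% of all tested genes were. SFRP2, a secreted WNT antagonist, was 2.39 RPM on day 2 and 4.48 and 1.45 RPM on day 4 in BT, against 158, 294, 280.0 and 147 RPM in ESC. SFRP2 fell by 5.88 ± 0.34 log2 units (SE, adjusted p = 1.5e-06). Its relative SFRP1 was 100.8 RPM on day 2 and 71.2 and 138 RPM on day 4 in BT, against 638, 767, 1229 and 679.9 RPM in ESC. SFRP1 fell by 2.99 ± 0.27 log2 units (SE, adjusted p = 1.9e-05). SFRP2 was nearly gone from every BT library, and SFRP1 was lower in each but still well above 10 RPM. SOX3 was 0.34 RPM on day 2 and 0 and 0 RPM on day 4 in BT, against 13.4, 10.8, 20.2 and 15.1 RPM in ESC. SOX3 fell by 3.81 ± 0.51 log2 units (SE, adjusted p = 0.00027). DNMT3B, the de novo DNA methyltransferase of the epiblast, was 173 RPM on day 2 and 328 and 235 RPM on day 4 in BT, against 1046, 1106, 1090.1 and 644 RPM in ESC. DNMT3B fell by 2.0 ± 0.25 log2 units (SE, adjusted p = 0.00019). The other members that fell were SALL2, FST and POU3F1, which did not pass the filter without ESC library 3 or 4. ZIC2 did not go with them, at 384 RPM on day 2 and 341 and 515 RPM on day 4 in BT, against 442, 291, 474 and 353 RPM in ESC (log2 difference 0.09 ± 0.22 SE, adjusted p = 0.82), and ZIC5 was not called. Among 9 DNA methylation genes 8 were tested, with 1 lower and 1 higher, where 6.6% and 9.43% of all tested genes were. DNMT3B was the lower one. TET2, an enzyme that oxidises methylcytosine, was higher (32.1 RPM on day 2 and 10.4 and 25 RPM on day 4 in BT, against 2.5, 3.88, 8.79 and 3.23 RPM in ESC). It passed the filter through BT libraries alone. The call of TET2 (log2 difference 2.06 ± 0.49 SE, adjusted p = 0.011) was lost without the day 2 library (1.74, adjusted p = 0.061) or day 4 library 2 (1.92, adjusted p = 0.053).

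Germ cell genes were mixed. Of 13 listed, 5 were tested, 2 of which passed through BT libraries alone and 1 through ESC alone. PRDM1 is 1 of the 5, and of the other 4 members 3 were higher and 1 lower, where 9.43% and 6.6% of all tested genes were. The members that rose were KIT, a receptor tyrosine kinase (86.4 RPM on day 2 and 10.9 and 139 RPM on day 4 in BT, against 0.74, 0.86, 0 and 3.23 RPM in ESC), PDPN, podoplanin (501 RPM on day 2 and 474 and 499 RPM on day 4 in BT, against 91.5, 118, 90.1 and 262 RPM in ESC), and ALPL, alkaline phosphatase (265 RPM on day 2 and 97 and 268 RPM on day 4 in BT, against 44.6, 52.6, 50.5 and 12.4 RPM in ESC). PRDM14, a regulator of naive pluripotency and germ cell fate, was 0 RPM on day 2 and 1.49 and 0 RPM on day 4 in BT, against 160.0, 152, 118 and 136 RPM in ESC. PRDM14 fell by 6.71 ± 0.35 log2 units (SE, adjusted p = 7.4e-07). The members TFAP2C, NANOS3, SOX15, TFCP2L1, TCL1A, TCL1B and DPPA3 stayed under 6 RPM in each BT library, and DND1 was 5.47 RPM on day 2 and 9.46 and 11.2 RPM on day 4 in BT, against 6.91, 3.88, 6.59 and 7.54 RPM in ESC.

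Genes of streak and mesoderm were higher in part. Of 15 listed members 9 were tested, 5 of them passing through BT libraries alone. Of the 9, 7 were higher and 0 lower, where 9.43% and 6.6% of all tested genes were. EOMES, MIXL1, WNT3, FOXC1 and HAND2 were among them. WNT3 and FOXC1 did not pass the filter with either day 4 library left out. HAND2 passed it only with both the day 2 library and day 4 library 2. HAND1, a basic helix-loop-helix factor of extraembryonic and lateral mesoderm, was 153 RPM on day 2 and 83.6 and 41.6 RPM on day 4 in BT and at 0 in all ESC libraries, at least 409.6-fold higher against 3 reads over the ESC libraries. HAND1 was higher by 6.36 ± 0.50 log2 units (SE, adjusted p = 8.1e-06). T (brachyury), the streak and notochord gene, was 7.17 RPM on day 2 and 61.7 and 11.2 RPM on day 4 in BT, against 3.97, 6.04, 0 and 3.23 RPM in ESC. T rose by 2.40 ± 0.78 log2 units (SE, adjusted p = 0.047). It was highest in day 4 library 1. That call was lost when any 1 of the ESC libraries was left out (1.80 to 2.74, adjusted p of 0.051 to 0.094), and T did not pass the filter with either day 4 library left out. MESP1 (0 RPM on day 2 and 11.4 and 0 RPM on day 4 in BT) and MESP2 (1.71 RPM on day 2 and 10.4 and 0 RPM on day 4 in BT), factors of early mesoderm, were also highest in that library, and TBX6 and MSGN1, of paraxial mesoderm, were at or under 1 read in each BT and ESC library. Library 1 of day 4 thus held more of T, MESP1, MIXL1 and POU5F1 and less of TTR, APOA1 and LRP2 than the other day 4 library. The part of other cell types in these differences between the day 4 libraries was not tested.

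Markers of amnion, gut region and vessel were present without their whole lists. Of 11 amnion and trophoblast genes 5 were tested, 3 of them passing through BT libraries alone. Of the 5, 3 were higher and 1 lower, where 9.43% and 6.6% of all tested genes were. GATA3, shared by amnion, trophoblast and BMP-treated cells, was 269.9 RPM on day 2 and 105 and 45.2 RPM on day 4 in BT, against 0.59, 1.73, 0.88 and 3.77 RPM in ESC. GATA3 was higher by 5.46 ± 0.56 log2 units (SE, adjusted p = 4.3e-05). GATA2 was 60.8 RPM on day 2 and 38.3 and 30.4 RPM on day 4 in BT, against 0, 0.43, 0.44 and 0 RPM in ESC. TFAP2A (0 RPM on day 2 and 1.99 and 0.72 RPM on day 4 in BT), an amnion factor, stayed low, GABRP and WNT6 were at 0 in all 7 BT and ESC libraries and VTCN1 was lower (0.34 RPM on day 2 and 10.9 and 6.87 RPM on day 4 in BT, against 43.7, 57, 29 and 27.5 RPM in ESC). Of 10 factors of gut regions 5 were tested, 4 of them passing through BT libraries alone. Those 4 were higher, where 9.43% of all tested genes were. TBX3, a T-box repressor of hepatoblasts and other tissues, was 245 RPM on day 2 and 181 and 252 RPM on day 4 in BT, against 0, 0, 0.44 and 0 RPM in ESC. TBX3 rose by 7.68 ± 0.34 log2 units (SE, adjusted p = 1.8e-07). CDX2, a caudal factor of hindgut and posterior embryo, was 15 RPM on day 2 and 32.9 and 17.4 RPM on day 4 in BT and at 0 in all ESC libraries, at least 96-fold higher. CDX1 was 2.73 RPM on day 2 and 30.4 and 17.4 RPM on day 4 in BT and at 0 in all ESC libraries as well, and it did not pass the filter with either day 4 library left out. ISL1 was 63.9 RPM on day 2 and 8.96 and 32.6 RPM on day 4 in BT, against 0.15, 0, 0 and 0.54 RPM in ESC, and passed it only with both the day 2 library and day 4 library 2. PDX1, NKX2-1, PAX9 and NKX6-1, markers of pancreas, lung and pharynx, were at 0 in all 7 libraries.

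Of 10 endothelial and blood genes 5 were tested, 2 of them passing through BT libraries alone. Of the 5, 4 were higher, where 9.43% of all tested genes were. CDH5 (VE-cadherin) was 71.8 RPM on day 2 and 87.1 and 89.7 RPM on day 4 in BT, against 6.77, 16, 4.4 and 7 RPM in ESC. CDH5 was higher by 3.26 ± 0.36 log2 units (SE, adjusted p = 6.6e-05). LMO2 was 136 RPM on day 2 and 202 and 177 RPM on day 4 in BT, against 2.35, 0.43, 7.47 and 0.54 RPM in ESC. LMO2 rose by 5.92 ± 0.54 log2 units (SE, adjusted p = 1.9e-05). PECAM1 and KDR rose as well, PECAM1 passing the filter only with both the day 2 library and day 4 library 2. The summed level of the list was 345, 342 and 549.5 RPM in BT, against 38.2, 31.5, 45.7 and 55 RPM in ESC. The members TAL1, CD34, TIE1 and GATA1 stayed at or under 2.53 RPM in each BT and ESC library, and TEK was not called. Of 12 mesenchyme genes 5 were tested, 1 of them (ACTA2) passing through ESC alone. Of the 5, 1 was higher and 3 lower, where 9.43% and 6.6% of all tested genes were. TAGLN, a smooth muscle actin-binding protein, was 21.9 RPM on day 2 and 13.9 and 17.7 RPM on day 4 in BT, against 455, 599.8, 950.4 and 1834 RPM in ESC. TAGLN fell by 5.49 ± 0.39 log2 units (SE, adjusted p = 4.2e-06). COL1A1 and ACTA2 fell with it, ACTA2 not passing the filter without ESC library 2 or 3. TWIST1, a mesenchymal transcription factor, rose by 1.19 ± 0.39 log2 units (SE, adjusted p = 0.047). That call was lost when any 1 of the BT libraries (adjusted p of 0.069 to 0.15) or ESC library 1, 2 or 3 (0.075 to 0.12) was left out. The summed level of this list was 136, 77.2 and 98.8 RPM in BT, against 696, 923, 1364 and 2003 RPM in ESC, and DCN was at 0 in all 7 BT and ESC libraries.

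BMP targets rose almost as a whole. Of 9 listed all were tested, 3 of them passing through BT libraries alone, and 8 were higher and 0 lower, against 9.43% of all genes. MSX1, a homeobox gene induced by BMP, was 68.3 RPM on day 2 and 165 and 153 RPM on day 4 in BT, against 0.29, 1.29, 0 and 0 RPM in ESC. MSX1 rose by 6.53 ± 0.46 log2 units (SE, adjusted p = 4.2e-06). Its relative MSX2 was 89.5 RPM on day 2 and 50.3 and 28.6 RPM on day 4 in BT and at 0 in all ESC libraries, at least 248-fold higher. MSX2 was higher by 5.69 ± 0.52 log2 units (SE, adjusted p = 2.1e-05). ID3, an inhibitor of basic helix-loop-helix factors, was 954 RPM on day 2 and 1139 and 856 RPM on day 4 in BT, against 174, 224, 106 and 228 RPM in ESC. ID3 was higher by 2.47 ± 0.26 log2 units (SE, adjusted p = 4.5e-05). ID1 was 233 RPM on day 2 and 232 and 193 RPM on day 4 in BT, against 54.6, 49.6, 24.6 and 33.9 RPM in ESC. ID1 rose by 2.46 ± 0.27 log2 units (SE, adjusted p = 6.6e-05). SMAD6, a feedback inhibitor of the BMP receptor, was 37.2 RPM on day 2 and 20.4 and 18.1 RPM on day 4 in BT, against 2.21, 1.29, 1.32 and 1.08 RPM in ESC. SMAD6 was higher by 3.36 ± 0.45 log2 units (SE, adjusted p = 0.00031). ID2, ID4 and the pseudoreceptor BAMBI rose and were highest on day 2, and SMAD7 was not called. The BT cells had been given BMP4 and the ESC had not, so medium and gate cannot be told apart here.

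Targets of WNT were higher as well, in 7 of 10 tested (5 passing through BT libraries alone, 13 listed) with 0 lower. Of all tested genes 9.43% were higher and 6.6% lower. SP5 was 70 RPM on day 2 and 198 and 256 RPM on day 4 in BT, against 3.38, 1.29, 0.88 and 0.54 RPM in ESC. SP5 rose by 6.05 ± 0.48 log2 units (SE, adjusted p = 8.4e-06). LEF1, the nuclear partner of β-catenin, was 36.9 RPM on day 2 and 87.6 and 67.7 RPM on day 4 in BT, against 0, 3.02, 0 and 0 RPM in ESC. LEF1 was higher by 5.44 ± 0.58 log2 units (SE, adjusted p = 5.7e-05). The feedback inhibitor AXIN2 was 83.4 RPM on day 2 and 120.5 and 174 RPM on day 4 in BT, against 11, 16, 12.8 and 1.62 RPM in ESC. AXIN2 rose by 3.71 ± 0.54 log2 units (SE, adjusted p = 0.00056). In these 3 genes the day 2 library was the lowest BT library. TCF7, NKD1, RNF43 and DKK1 were the other members that rose. The ESC medium held IWR1, and the induction medium as labelled did not, so this group difference and the medium cannot be told apart.

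Of the NODAL pathway 11 of 12 members are in the table and all were tested, 1 of them (GDF3) passing through BT libraries alone. Of the 11, 3 were higher and 0 lower, where 9.43% and 6.6% of all tested genes were. GDF3, a ligand of the same receptors, was 24.3 RPM on day 2 and 15.9 and 72.7 RPM on day 4 in BT, against 8.09, 1.73, 0 and 8.08 RPM in ESC, a call (log2 difference 3.03 ± 0.76 SE) lost without day 4 library 2 (2.42, adjusted p = 0.085). FOXH1, the partner of SMAD2, rose (log2 difference 1.22 ± 0.38 SE, adjusted p = 0.04) and lost its call without day 4 library 1 (0.73), without day 4 library 2 (1.35, adjusted p = 0.077), or without any ESC library (0.98 to 1.29) except library 3. NODAL itself was 23.6 RPM on day 2 and 4.48 and 44.1 RPM on day 4 in BT, against 16.8, 10.4, 2.64 and 11.8 RPM in ESC, and LEFTY1 was 0 RPM on day 2 and 0 and 30.8 RPM on day 4 in BT, against 18.4, 12.5, 0 and 25.3 RPM in ESC, both overlapping.

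Of the FGF and ERK feedback list 11 of 14 members were tested, 1 passing through BT libraries alone (FGF17) and 1 through ESC alone (FGF2). Of the 11, 2 were higher and 1 lower. Of all tested genes 9.43% were higher and 6.6% lower. FGF2, the ligand added to the ESC medium, was 2.39 RPM on day 2 and 9.46 and 9.77 RPM on day 4 in BT, against 127, 199, 173 and 194 RPM in ESC. FGF2 fell by 4.56 ± 0.37 log2 units (SE, adjusted p = 9.7e-06). FGF17 was 29 RPM on day 2 and 41.3 and 116 RPM on day 4 in BT, against 2.65, 3.02, 0 and 1.08 RPM in ESC. FGF17 rose by 4.49 ± 0.59 log2 units (SE, adjusted p = 0.00025). The receptor FGFR3 was 123 RPM on day 2 and 78.6 and 104 RPM on day 4 in BT, against 9.27, 13.4, 9.67 and 24.8 RPM in ESC. FGFR3 was higher by 2.83 ± 0.33 log2 units (SE, adjusted p = 0.00011). The feedback genes DUSP6 (log2 difference -0.29 ± 0.26 SE), SPRY2 (log2 difference -0.11 ± 0.25 SE) and SPRY4 (log2 difference -0.0041 ± 0.31 SE) were not called.

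**Figure D4:**
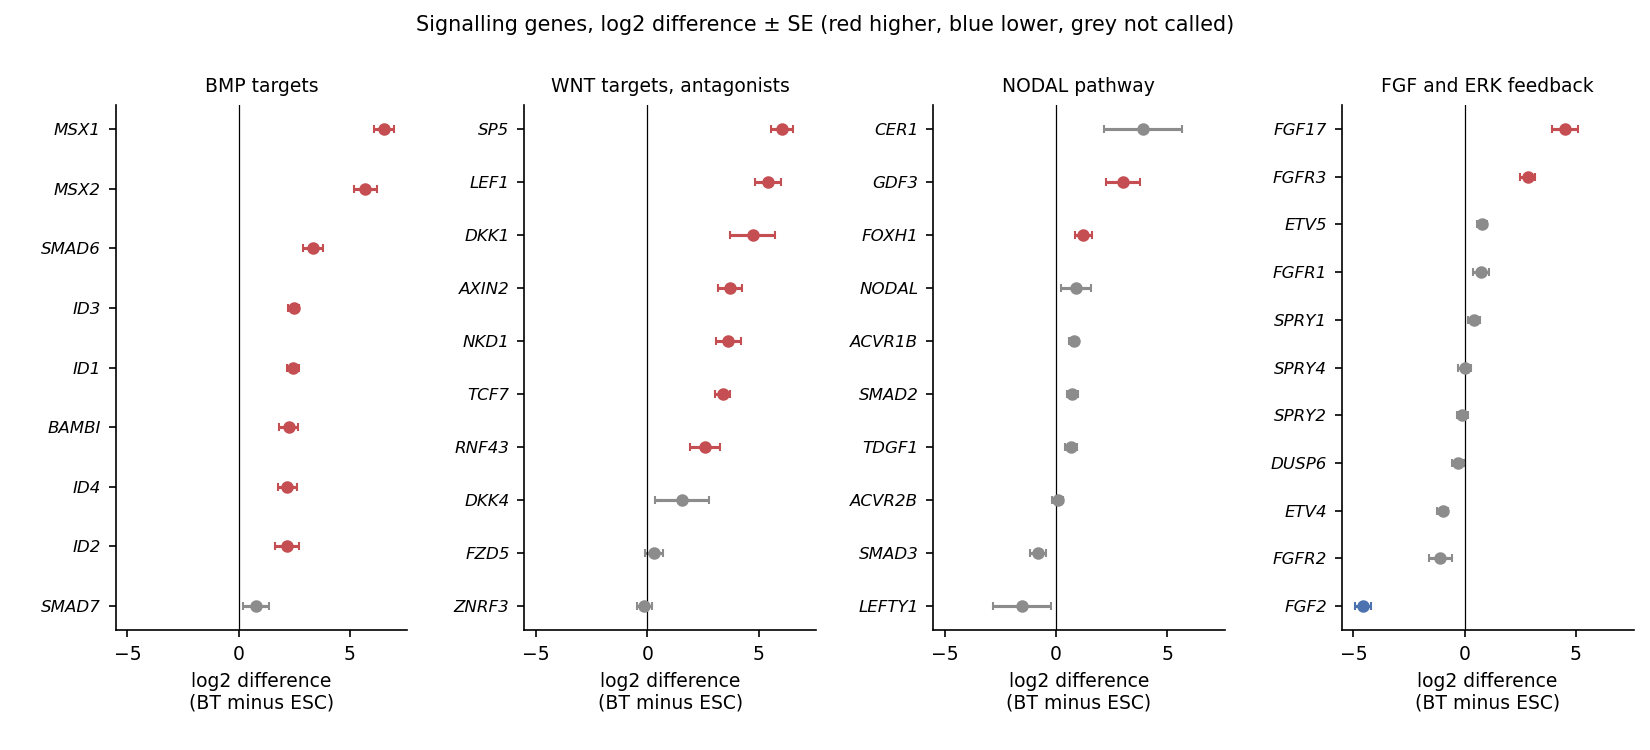
Log2 difference of BT cells minus ESC with its SE for tested members of 4 signalling lists, red where higher in BT, blue where lower and grey where not called. BMP targets and WNT targets lie to the right of 0, except ZNRF3, with SMAD7, DKK4, FZD5 and ZNRF3 not called, and FGF2 is the member at the far left.

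Of 15 cell cycle genes, all tested, 0 were higher and 1 was lower, near the 6.6% of all tested genes that were lower. The member was PCNA (229 RPM on day 2 and 481 and 325 RPM on day 4 in BT, against 801, 1288, 415 and 678 RPM in ESC). That call (log2 difference -1.15 ± 0.34 SE, adjusted p = 0.032) was lost without the day 2 library (-0.89, adjusted p = 0.14), day 4 library 2 (-1.14, adjusted p = 0.095), ESC library 1 (-1.11, adjusted p = 0.078) or ESC library 2 (-0.88, adjusted p = 0.071). MKI67 was 84 RPM on day 2 and 129 and 109 RPM on day 4 in BT, against 173, 179, 156 and 179 RPM in ESC, below ESC in each BT library and under the fold threshold. Of 12 p53 and stress genes 10 were tested, 2 of them passing through ESC alone. Of the 10, 0 were higher and 1 lower, where 9.43% and 6.6% of all tested genes were. The lower member was CDKN1A, the p53-induced inhibitor of cyclin kinases (6.49 RPM on day 2 and 4.98 and 3.98 RPM on day 4 in BT, against 24.7, 51.8, 38.2 and 15.1 RPM in ESC). It passed the filter through ESC libraries alone. Of 10 genes of cholesterol and lipid synthesis 9 were tested and 5 were higher, against 9.43% of all tested genes. HMGCS1 was 573 RPM on day 2 and 586 and 355 RPM on day 4 in BT, against 157, 148, 86.6 and 237 RPM in ESC. HMGCS1 rose by 1.73 ± 0.30 log2 units (SE, adjusted p = 0.0018). IDI1, INSIG1 and SCD rose as well. INSIG1 (log2 difference 1.77) lost its call without the day 2 library (1.29), ESC library 1 (1.59) or ESC library 3 (1.51), and SCD (1.06) without the day 2 library (0.89), ESC library 2 (0.90) or ESC library 3 (0.96).

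Of 10 surface genes of stem cells, all tested, 5 were lower and 1 higher, where 6.6% and 9.43% of all tested genes were. SPP1 (osteopontin) was 74.5 RPM on day 2 and 209.5 and 6.87 RPM on day 4 in BT, against 719, 5013, 1890.2 and 5468 RPM in ESC. SPP1 fell by 5.63 ± 0.93 log2 units (SE, adjusted p = 0.0013). THY1 was 1.02 RPM on day 2 and 25.4 and 3.26 RPM on day 4 in BT, against 175, 233, 135 and 166 RPM in ESC. THY1 fell by 4.84 ± 0.64 log2 units (SE, adjusted p = 0.00026). GPC4 fell too. CD24 (log2 difference -1.54) lost its call without day 4 library 1 (-0.95), day 4 library 2 (-1.59, adjusted p = 0.058) or ESC library 3 (-1.35, adjusted p = 0.059), and CD9 (-1.59) without the day 2 library (-1.07). EPHA4, an ephrin receptor, was 92.2 RPM on day 2 and 42.3 and 79.6 RPM on day 4 in BT, against 8.38, 1.29, 14.1 and 1.08 RPM in ESC. EPHA4 rose by 3.76 ± 0.64 log2 units (SE, adjusted p = 0.0015). B2M, a subunit of MHC class I molecules, overlapped with ESC at 1829.5 RPM on day 2 and 1050.2 and 718 RPM on day 4 in BT, against 1355, 1629.9, 1593 and 1237 RPM in ESC.

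Outside the lists, the largest increases without overlap included LGR5, PCP4L1, EVX1, SYNDIG1L, COL9A2 and WFDC2. LGR5, a receptor for R-spondins, was 227 RPM on day 2 and 97.5 and 561 RPM on day 4 in BT, against 2.35, 0, 0 and 0 RPM in ESC. LGR5 was higher by 7.43 ± 0.59 log2 units (SE, adjusted p = 8.4e-06). EVX1, a homeobox gene of the posterior streak, was 56 RPM on day 2 and 163 and 100.9 RPM on day 4 in BT and at 0 in all ESC libraries, at least 471-fold higher. EVX1 rose by 6.62 ± 0.46 log2 units (SE, adjusted p = 4.2e-06). WFDC2, a secreted protease inhibitor of epithelia, was 1095 RPM on day 2 and 106 and 374 RPM on day 4 in BT, against 2.06, 12.1, 2.2 and 0.54 RPM in ESC. WFDC2 was higher by 6.56 ± 0.75 log2 units (SE, adjusted p = 0.0001). COL9A2, a collagen chain, was 454 RPM on day 2 and 161 and 718 RPM on day 4 in BT, against 5.74, 7.34, 1.76 and 0.54 RPM in ESC, PCP4L1 was 271 RPM on day 2 and 86.1 and 443 RPM on day 4 in BT, against 0.59, 0, 1.32 and 0.54 RPM in ESC, and SYNDIG1L was 99.8 RPM on day 2 and 133 and 269 RPM on day 4 in BT, against 0.29, 1.29, 0.44 and 0.54 RPM in ESC. These genes were high on both days. Among the largest decreases, CAV1 (caveolin) was 1.37 RPM on day 2 and 0.5 and 0.36 RPM on day 4 in BT, against 101.2, 236, 129.7 and 539 RPM in ESC. CAV1 fell by 6.91 ± 0.48 log2 units (SE, adjusted p = 4.2e-06). The smooth muscle actin gene ACTG2 was 2.05 RPM on day 2 and 56.2 and 6.15 RPM on day 4 in BT, against 836, 1573, 1572 and 1084 RPM in ESC. ACTG2 fell by 6.83 ± 0.72 log2 units (SE, adjusted p = 4.9e-05). S100A6, a calcium-binding protein, was 0 RPM on day 2 and 0 and 0.72 RPM on day 4 in BT, against 141, 37.5, 19.8 and 499 RPM in ESC. S100A6 fell by 6.18 ± 0.84 log2 units (SE, adjusted p = 0.00033). Its ESC libraries spanned a wide range. TRIM22 was 1.71 RPM on day 2 and 1 and 1.81 RPM on day 4 in BT, against 86.8, 141, 169 and 74.9 RPM in ESC.

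To see where BT cells differ from cells in which both reporters were on, they were set against the 4 BTAG positive libraries of the same medium, line and days (2 from day 2, 2 from day 4), with the day as a covariate. Of 9472 genes tested 675 (7.13%) were higher and 575 (6.07%) lower in BT cells, 1250 (13.2%) in all. SOX17 was not called (475 RPM on day 2 and 925 and 716 RPM on day 4 in BT, against 1109.6 and 1132 RPM on day 2 and 859.7 and 949.7 RPM on day 4 in BTAG, log2 difference -0.58 ± 0.22 SE, adjusted p = 0.11). GATA6 was 220.4 RPM on day 2 and 480.3 and 325 RPM on day 4 in BT, against 39.7 and 3.9 RPM on day 2 and 5.18 and 1.87 RPM on day 4 in BTAG. GATA6 was higher in BT by 5.52 ± 0.76 log2 units (SE, adjusted p = 0.0019). LHX1 was 302 RPM on day 2 and 489 and 658 RPM on day 4 in BT, against 8.18 and 1.46 RPM on day 2 and 0.58 and 4.36 RPM on day 4 in BTAG. LHX1 was higher in BT by 6.96 ± 0.58 log2 units (SE, adjusted p = 0.00018). Both genes were above every BTAG library in each BT library, whereas SOX17 was high in both sorts. Of the endoderm transcription factors 6 of 7 tested were higher in BT, of the hypoblast list 6 of 9, of the organizer list 6 of 13 and of the serum proteins 5 of 7. Of the basement membrane genes 5 of 12 were higher in BT, and COL4A6 was lower, with a log2 difference of -1.92 ± 0.24 (SE, adjusted p = 0.0015). COL4A6 was 98.2 and 133 RPM on day 2 and 182 and 187 RPM on day 4 in BTAG. LAMA5 (274 and 323 RPM on day 2 and 259 and 316 RPM on day 4 in BTAG), COL4A5 and DAB2 (184 and 241 RPM on day 2 and 50.1 and 23.7 RPM on day 4 in BTAG) were not called.

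In the other direction, TFAP2C was 0.34 RPM on day 2 and 3.48 and 2.53 RPM on day 4 in BT, against 521 and 705 RPM on day 2 and 544 and 524 RPM on day 4 in BTAG. The TFAP2C reporter set these 2 sorts apart, so TFAP2C is given as a description only. NANOS3 was 1.71 RPM on day 2 and 5.47 and 0.72 RPM on day 4 in BT, against 29.2 and 12.7 RPM on day 2 and 23.6 and 26.1 RPM on day 4 in BTAG. NANOS3 was lower in BT, with a log2 difference of -2.94 ± 0.52 (SE, adjusted p = 0.0061). POU5F1 was 24.3 RPM on day 2 and 319.5 and 70.2 RPM on day 4 in BT, against 1219 and 1985 RPM on day 2 and 2477 and 2485 RPM on day 4 in BTAG. POU5F1 was lower in BT, with a log2 difference of -4.80 ± 0.53 (SE, adjusted p = 0.00073). NANOG was 0.68 RPM on day 2 and 7.47 and 1.45 RPM on day 4 in BT, against 247 and 502 RPM on day 2 and 577 and 620.2 RPM on day 4 in BTAG. NANOG was lower in BT, with a log2 difference of -7.31 ± 0.43 (SE, adjusted p = 3.9e-05). Both pluripotency factors were thus lower in BT cells than in either BTAG cells or ESC. T was 7.17 RPM on day 2 and 61.7 and 11.2 RPM on day 4 in BT, against 231 and 338 RPM on day 2 and 514 and 377 RPM on day 4 in BTAG. T was lower in BT, with a log2 difference of -4.44 ± 0.51 (SE, adjusted p = 0.00087). Of the germ cell list 8 of 11 tested were lower in BT and 0 higher, where 6.07% and 7.13% of all tested genes were. TFAP2C and PRDM1, the genes of the 2 reporters, are among these 8. KIT (20.45 and 86.3 RPM on day 2 and 166 and 148 RPM on day 4 in BTAG, adjusted p = 0.63) and ALPL (152.5 and 137 RPM on day 2 and 282 and 307 RPM on day 4 in BTAG, adjusted p = 0.82) were not called. PRDM1 itself was 85.1 RPM on day 2 and 104 and 114 RPM on day 4 in BT, against 265 and 318 RPM on day 2 and 162 and 189.9 RPM on day 4 in BTAG. Both sorts used its reporter, so PRDM1 is given as a description only here too. B2M, which in BT cells overlapped with ESC, was 473 and 336 RPM on day 2 and 30.5 and 23.7 RPM on day 4 in BTAG. B2M was higher in BT by 3.86 ± 0.49 log2 units (SE, adjusted p = 0.0015). DUSP6, an ERK phosphatase, was 246 RPM on day 2 and 366 and 332 RPM on day 4 in BT, against 71.3 and 23.9 RPM on day 2 and 6.33 and 6.23 RPM on day 4 in BTAG. DUSP6 was higher in BT by 4.37 ± 0.59 log2 units (SE, adjusted p = 0.0018). Of the BMP targets 3 of 9 were higher in BT and 0 lower, and both sorts had been given BMP4. The 1250 calls in all were 776 without day 4 BT library 2 and 815 without either day 4 BTAG library.

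**Figure D5:**
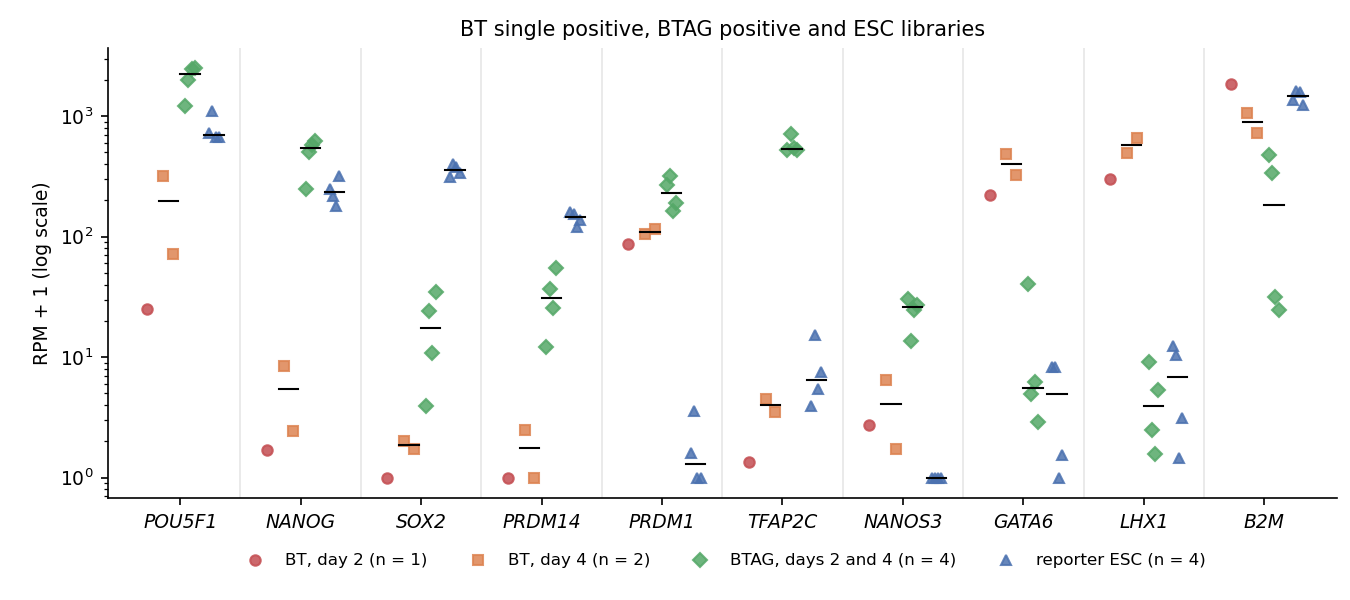
RPM + 1 on a log scale in each library for 10 genes, with BT cells of day 2 (circles) and day 4 (squares), BTAG cells of days 2 and 4 (diamonds) and reporter ESC (triangles) from left to right; black bars are medians. GATA6 and LHX1 stand above and POU5F1, NANOG and TFAP2C below the BTAG libraries in each BT library.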

How the data were processed

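Per the labels' protocols, 1 ng of purified total RNA a library went into a 3′ end sequencing assay of bulk RNA. The authors deposited the monkey values as RPM, the reads of a gene scaled to the total of the library, in 1 table of 26018 entries, 9295 of them unnamed LOC entries. Per the submitters' processing notes, cutadapt 1.3, TopHat 1.4.1 and Cufflinks 2.2.0 were used, with no role or order given. The genome build of the monkey table, the annotation and the counting are not given in the sources used here, and no coordinates are printed. Reads of genes with near-identical copies, overlapping or antisense genes may have been split or shared by the counting.

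Low values are whole multiples of the RPM of 1 read within 0.1 steps for 99.4% to 99.7% of values in the 7 libraries, which gave the depths. The precision of low values is that of counting reads without molecular identifiers. Groups follow the labels, and libraries are numbered in label order. Every test used limma 3.58.1 in R 4.3.3, a moderated linear model with an intensity trend on log2(RPM + 1), restricted to genes that reached 10 RPM in 2 or more libraries of the fit, with Benjamini-Hochberg adjustment over all of them and a call at an adjusted p under 0.05 and a log2 difference of at least 1. The days were separated in a fit of 3 groups on the same 7 libraries. limma offset some sample variances of 0. Scripts were tested on simulated data. edgeR 4.0.16 (quasi-likelihood) and DESeq2 1.42.0 were run as alternatives on the recovered reads, rounded to whole numbers, for every comparison.

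The members of the comparison and the 24 gene lists (280 genes, 2 of them, LEFTY2 and HSPA1A, with no entry of that symbol in the table) were chosen with earlier results of these data known. Named genes are SOX17, GATA6, TTR, PRDM1, TFAP2C, NANOS3, POU5F1, NANOG and SOX2, up to 6 called members of each list with the largest differences, and the 10 largest increases and 10 largest decreases without overlap and without LOC entries. Further list members, BMP6, HNF4G, OTX2, T, CER1 and APOB among them, were named after their values were seen, to show the rest of a list. Some genes that this rule names are not reported here and are left out of the plots, while the counts include them. The plots were drawn with matplotlib 3.10.9.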

Additional observations from a re-analysis of the deposited data

Results flagged for a closer look

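In 8 of the named genes 1 of the 4 ESC libraries stood apart from the other 3 by more than Dixon's gap test at the 95% level allows, which chance alone gives in about 1 group in 20. The screen covered those of the 109 genes chosen by rule, and of further genes of the text, that reached 10 RPM in an ESC library. With so many genes screened, several such gaps can arise by chance, and no library is called faulty from them. ESC library 2 was the high one for POU5F1 (1091 RPM, against 672 to 725 RPM in the other 3), FLRT3 (21.1 RPM, against 11.9 to 12.9 RPM) and WFDC2 (12.1 RPM, against 0.54 to 2.2 RPM). ESC library 4 was the high one for PDPN (262 RPM, against 90.1 to 118 RPM), CDH2 (276 RPM, against 126 to 146 RPM) and GPC4 (856 RPM, against 361 to 395 RPM), and the low one for DNMT3B (644 RPM, against 1046 to 1106 RPM). ESC library 3 was the high one for BAMBI (103 RPM, against 35 to 38.8 RPM). All 8 genes kept every BT library on the same side of all 4 ESC libraries.

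The library labelled ESC library 5, which entered none of the counts of calls above except where it is said to be kept, held 252.51 RPM of PRDM1, 1210.59 RPM of SOX17 and 587.72 RPM of TFAP2C, each above the highest value of the 4 ESC libraries compared (2.59, 3.45 and 14.2 RPM).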

How the results depend on the processing

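Each called difference of the genes chosen by rule kept its direction under every alternative in which it could be tested. Over all comparisons and alternatives 5775 such values kept the call and 596 lost it. The counts of calls moved more. With libraries left out 1 at a time, the higher genes of BT against ESC were 573 to 1023 (894 with all) and the lower genes 507 to 673 (626 with all). In the same runs the day 4 comparison gave 523 to 1238 calls (1207), the day 2 comparison 648 to 1025 (949), day 4 against day 2 0 to 8 (0) and BT against BTAG 776 to 1381 (1250). A lone library left in a group was then assumed to vary like the other groups.

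At a log2 difference of at least 2 there were 433 higher and 271 lower genes in BT against ESC, 650 calls on day 4 and 615 against BTAG. With ESC library 5 kept there were 464 higher and 338 lower genes, 352 calls on day 4 and 164 on day 2. With title code MS162 alone there were 593, 289, 518 and 333. With a mean of at least 20 RPM there were 556 higher and 361 lower genes, 773 calls on day 4 and 831 against BTAG. With no filter there were 737 on day 4 and 144 between the days. A pseudocount of 10 gave 379 lower genes and 8 calls between the days, and one of 0.1 gave 1 call between the days. For these moves the cause was not tested, beyond the smaller number of genes or libraries that an alternative itself brings. On recovered reads edgeR gave 918 higher and 663 lower genes in BT against ESC and DESeq2 977 and 731. Between the days edgeR called 0 genes and DESeq2 34, and in the other comparisons both tools stayed within 1.5 times the counts of limma. DESeq2 gave no adjusted p for FABP1 in BT against ESC. Quantile normalization gave 791 higher and 774 lower genes. The labels give no replicate numbers, but the title numbers of the BT and BTAG libraries fall in 2 runs. With the run as a replicate block, an alternative chosen after seeing the data, 1239 genes were called in BT against BTAG (1250 without it), and 62 of the calls of genes chosen by rule were kept and 3 lost. The difference between the runs had a correlation of 0.19 over genes between day 4 BT and day 4 BTAG cells, and no label says that a run marks a shared culture. Calls near the filter rest on few libraries: 9 called genes of the text were not tested without the day 2 library and 13 without day 4 library 2.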
